A study of Mus musculus with 15 samples.

Results

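The repertoires described are those of CD8+CD44+ T cells left after removal of IGRP tetramer-binding cells, sorted from non-obese diabetic (NOD) mice with and without a mutation of Ifngr1. They were taken as every library of the flow-through fraction, 1 per mouse, and make up 8 of the 15 libraries analysed and 53819 of the 59364 clonotypes in them. WT NOD mice gave 4 libraries and Ifngr-1-mutant NOD mice gave 4, all from mice 125 days old. The labels name no other treatment and do not say what the mutant allele is. Spleen and non-draining lymph nodes of each mouse were pooled, cells binding a tetramer of the NOD class I molecule with an IGRP peptide were removed on a magnetic column, and RNA of the remaining CD8+CD44+ cells gave a T-cell receptor beta chain (TCRβ) library. IGRP is an antigen of pancreatic beta cells. The tables hold receptor sequences and no other transcripts, so the sort could not be checked against CD8 or CD44 themselves.

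Each TCRβ chain is assembled in the thymus by joining a V, a D and a J gene segment, with bases trimmed and added at the junctions. The junction encodes the third complementarity-determining region (CDR3), the loop that lies over the presented peptide. Cells of 1 clone carry the same junction, so a clonotype with a high count marks an expanded clone, a cell rich in receptor RNA, or both, which bulk RNA cannot tell apart. CD44 marks T cells that have met antigen or expanded. IFNGR1 is the ligand-binding chain of the receptor for interferon-γ, a cytokine made by activated CD8 T cells that acts on many cell types, T cells included. The comparison asks whether the bulk of antigen-experienced CD8 T cells, outside the removed specificity, differs in its receptors when that receptor chain is mutated.

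Clonotypes were told apart by V family, the cluster of the J segment (TRBJ1 or TRBJ2) and the bases of the CDR3. Receptors were told apart by V family, J segment and the amino acids of the CDR3. The WT libraries held 17116, 27836, 25873 and 24258 counts and the mutant libraries 20909, 29411, 24700 and 32856. Allowing 3 counts, an unseen clonotype has an upper limit of 0.00913% of the deepest and 0.0175% of the shallowest library. All 8 libraries together held 23 V families, 12 J segments, 232 V-J pairs and 48505 receptors. Library WT 1 stood apart from the others in clone sizes, and differences it moved are also given without it. Means are followed by the SD over 4 libraries unless another number is given.

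The largest clonotype of each library is shown to make the size range concrete. The junctional bases between the aligned V and J parts are in capitals, read 5′ to 3′ from the deposited tables.
WT 1 TRBV13 TRBJ2-7: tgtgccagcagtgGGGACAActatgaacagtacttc
WT 2 TRBV13 TRBJ2-1: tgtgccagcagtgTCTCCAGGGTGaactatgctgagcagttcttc
WT 3 TRBV13 TRBJ2-7: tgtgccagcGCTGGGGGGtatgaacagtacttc
WT 4 TRBV13 TRBJ1-2: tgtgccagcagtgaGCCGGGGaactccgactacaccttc
mutant 1 TRBV1 TRBJ2-5: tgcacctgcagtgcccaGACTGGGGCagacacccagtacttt
mutant 2 TRBV13 TRBJ1-1: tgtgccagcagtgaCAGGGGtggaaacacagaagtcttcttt
mutant 3 TRBV1 TRBJ2-4: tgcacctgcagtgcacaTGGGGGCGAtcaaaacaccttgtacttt
mutant 4 TRBV13 TRBJ2-1: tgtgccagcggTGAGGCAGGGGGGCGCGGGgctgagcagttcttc

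These clonotypes held small shares of their libraries. In WT mice the largest took 1.00% of the counts in WT 1 (95% exact Clopper-Pearson interval 0.861 to 1.17%), 0.445% in WT 2 (0.371 to 0.531%), 0.359% in WT 3 (0.290 to 0.440%) and 0.445% in WT 4 (0.365 to 0.537%). In mutant mice it took 0.674% in mutant 1 (0.568 to 0.795%), 0.415% in mutant 2 (0.345 to 0.495%), 0.263% in mutant 3 (0.203 to 0.335%) and 0.800% in mutant 4 (0.707 to 0.903%). The intervals cover counting error only. The ranges of the strains overlapped, and 6 of the 8 clonotypes used TRBV13, the most used V family of these cells. The WT 1 clonotype, whose CDR3 reads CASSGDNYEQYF, was found in 3 of the 8 libraries and in 2 of the tetramer-binding libraries, though not in that of its own mouse. The mutant 2 clonotype was found in that library alone, while its receptor, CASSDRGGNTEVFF, was found in 4.

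Repertoire breadth varied more between mice of 1 strain than between strains. WT libraries held 2040, 5316, 6991 and 8596 clonotypes and mutant libraries 4502, 6804, 9743 and 9827. The ranges overlapped, with WT 1 below every other library and mutant 3 and mutant 4 above the rest. Drawn down to 17116 counts each, WT libraries held 2040, 4760, 6091 and 7469 clonotypes and mutant libraries 4319, 5747, 8218 and 7593. The ratio of geometric means at equal depth, mutant over WT, was 1.37 (two-sided exact permutation p = 0.457, adjusted over the 16 single-value tests 0.665). The effective number of clonotypes, which weighs each by its share, was 1360, 3482, 4489 and 5838 in WT and 3233, 4168, 6389 and 5293 in mutant libraries, with the same p. Without WT 1 the log2 difference between strains went from 0.45 to 0.06 in clonotypes at equal depth and from 0.47 to 0.04 in the effective number. Without WT 4 it was 0.69 and 0.74. The number of cells per library is not given, so fewer cells and a narrower repertoire cannot be told apart.

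Clone sizes overlapped between the strains, with WT 1 far from the other libraries. Clonotypes holding at least 0.1% of the counts, here called expanded, took 33.7, 3.65, 2.82 and 0.717% of the counts in WT libraries and 4.15, 3.27, 1.80 and 6.44% in mutant libraries. WT 1 was several times above all others, with 207 expanded clonotypes where the other 7 libraries had 3 to 26. The difference, mutant minus WT, was -6.32 percentage points (two-sided exact permutation p = 0.857, adjusted 0.914) and turned to 1.52 without WT 1. The 10 largest clonotypes took 4.39, 2.15, 2.08 and 1.26% in WT and 2.41, 2.11, 1.59 and 4.54% in mutant libraries. The strains overlapped, and the difference of 0.191 percentage points (exact permutation p = 0.714) turned negative without WT 4 (-0.213) or mutant 4 (-0.436). Clonotypes with a single count at equal depth made up 15.4, 27.1, 37.5 and 44.4% in WT and 22.3, 36.1, 50.5 and 47.6% in mutant libraries (difference 8.05 percentage points, exact permutation p = 0.4, adjusted 0.665). That difference was 2.82 without WT 1, 4.26 without mutant 3, 5.25 without mutant 4, 12.5 without WT 4 and 13.7 without mutant 1. WT 1 was lowest and mutant 3 highest, with the strains interleaved between them.

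**Figure D1:**
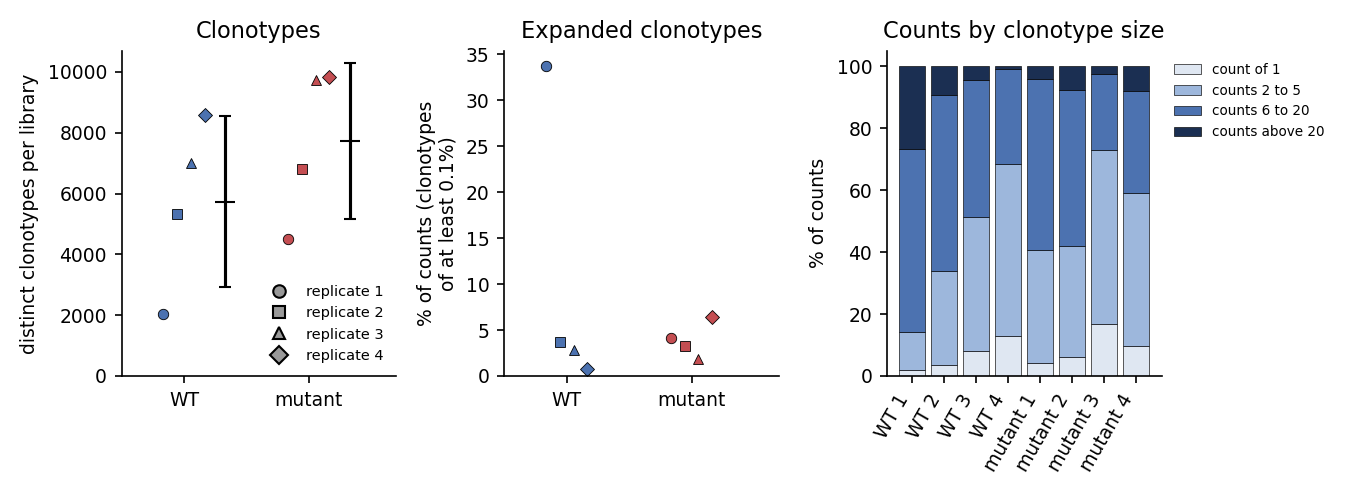
Left, distinct clonotypes per library at full depth, with mean and SD. Middle, percent of counts held by clonotypes of at least 0.1% of their library, where WT 1 lies at 33.7% and the other 7 between 0.717 and 6.44%. Right, percent of counts by clonotype size for each library. Each marker is 1 library; the same marker in both strains is a replicate number and not a shared mouse.

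The clonotypes that together held 50% of the counts made up a similar share of all clonotypes in every mouse, between 19.3% (mutant 2) and 22.7% (mutant 1). The absolute number of clonotypes needed differed more, from 396 in WT 1 to 2133 in mutant 3. The other 6 libraries needed between 1024 and 1946.

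Clonotypes of 6 to 20 counts used TRBV13 more often than single-count clonotypes in each library. TRBV13 is a family of several V genes that the tables do not separate. Its share was 24.5 ± 3.91% (SD, n = 8) of clonotypes with a count of 1, 29.6 ± 5.80% at counts of 2 to 5, 59.7 ± 8.35% at 6 to 20 and 71.4 ± 18.4% above 20. The last tier was thin in WT 4, with 4 clonotypes, and in mutant 3, with 19, where TRBV13 was at 31.6% after 64.9% at 6 to 20. Among the 10 largest clonotypes of each library, 53 of 80 were TRBV13, 30 of them in WT and 23 in mutant mice, and 4 of the 80 also occurred in a tetramer-binding library.

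Per clonotype, TRBV13 held more counts than the other families together in all 8 mice. Mean counts of TRBV13 clonotypes were 12.1, 7.65, 5.12 and 3.86 in WT and 6.52, 6.25, 3.24 and 4.56 in mutant libraries, against 6.18, 3.83, 2.96 and 2.28 and 3.67, 3.28, 2.17 and 2.70 for the other families. The ratio lay between 1.49 (mutant 3) and 2.00 (WT 2), on average 1.77-fold (two-sided exact sign-flip test over 8 mice, p = 0.00781, the smallest it can give, and adjusted over 5 such tests 0.00781). Between the strains the ratio differed by -0.11 in log2 units (exact permutation p = 0.286). TRBV1 followed with a mean of 4.19 ± 1.32 counts per clonotype and TRBV29 with 3.90 ± 1.26 (SD, n = 8). The lowest means were those of TRBV2, 1.86 ± 0.389, and TRBV20, 2.07 ± 0.574 (SD, n = 8). This and the other sign-flip comparisons were chosen after the data were seen. Counts come from RNA, and differences between families in receptor RNA per cell or in amplification were not tested.

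V family use gave no call. Of 17 families with enough clonotypes to test, 0 passed (0%, edgeR's quasi-likelihood test, adjusted p under 0.05), and 0 had an unadjusted p under 0.05. With DESeq2, 0 passed as well. TRBV13 made up 37.6, 36.9, 34.4 and 34.3% of clonotypes in WT and 34.1, 35.1, 34.2 and 34.7% in mutant libraries. WT 1 and WT 2 lay above all mutant libraries, and WT 3 and WT 4 lay among them (log2 fold change -0.05, SE 0.06, edgeR adjusted p = 0.671).

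V families that other T cells are known for were not called either. Invariant natural killer T cells of the mouse use mainly TRBV13, TRBV29 and TRBV1, and mucosal-associated invariant T cells TRBV13 and TRBV19, but ordinary CD8 T cells use all of these as well. TRBV29 took 5.81 ± 0.480% of WT and 6.18 ± 0.419% of mutant clonotypes, TRBV1 6.14 ± 1.37% and 6.10 ± 0.613%, and TRBV19 5.75 ± 0.446% and 6.21 ± 0.462%, with 0 of these 3 or TRBV13 called. TRBV26, a family whose cells can be deleted by endogenous superantigens, took 0.373 ± 0.0726% and 0.405 ± 0.0756%. Beta chains alone do not identify these cell types, so their part in the results was not tested.

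J segment use differed by small amounts. TRBJ1-3 was the 1 of 12 J segments called (8.33%, edgeR's quasi-likelihood test, adjusted p under 0.05), and it was lower in mutant mice. It took 4.09, 5.25, 5.25 and 4.93% of clonotypes in WT and 4.61, 4.23, 4.52 and 3.87% in mutant libraries. WT 1 lay among the mutant libraries, and the other 3 WT libraries lay above all of them. The log2 fold change was -0.23 (SE 0.07, edgeR adjusted p = 0.0305), with adjusted p from 0.00581 to 0.549 over the alternatives. The call was lost without WT 2 (adjusted p = 0.186), WT 3 (0.166), mutant 2 (0.132) or mutant 4 (0.151), and with TMM scaling (0.0616), DESeq2 (0.105) or weighting by counts (0.549).

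TRBJ2-4 went the other way without passing the test. It took 8.73, 8.88, 8.89 and 9.40% of clonotypes in WT and 9.67, 9.84, 9.92 and 10.8% in mutant libraries. Every mutant library lay above every WT library. The log2 fold change was 0.16 (SE 0.06, edgeR adjusted p = 0.0505, and 0.0331 to 0.549 over the alternatives). By counts TRBJ2-4 took 9.69, 9.57, 9.50 and 9.66% in WT and 10.3, 9.67, 10.7 and 10.6% in mutant libraries. By counts the groups overlapped, with mutant 2 just below WT 1. TRBJ1-1, singled out after its values were seen, took 8.75 ± 0.713% in WT and 8.06 ± 0.203% in mutant mice (edgeR adjusted p = 0.0851). All TRBJ1 segments together took 27.2, 30.4, 30.7 and 28.4% of clonotypes in WT and 28.5, 27.0, 27.9 and 25.7% in mutant libraries. The strains overlapped (difference -1.89 percentage points, two-sided exact permutation p = 0.143, adjusted 0.665).

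**Figure D2:**
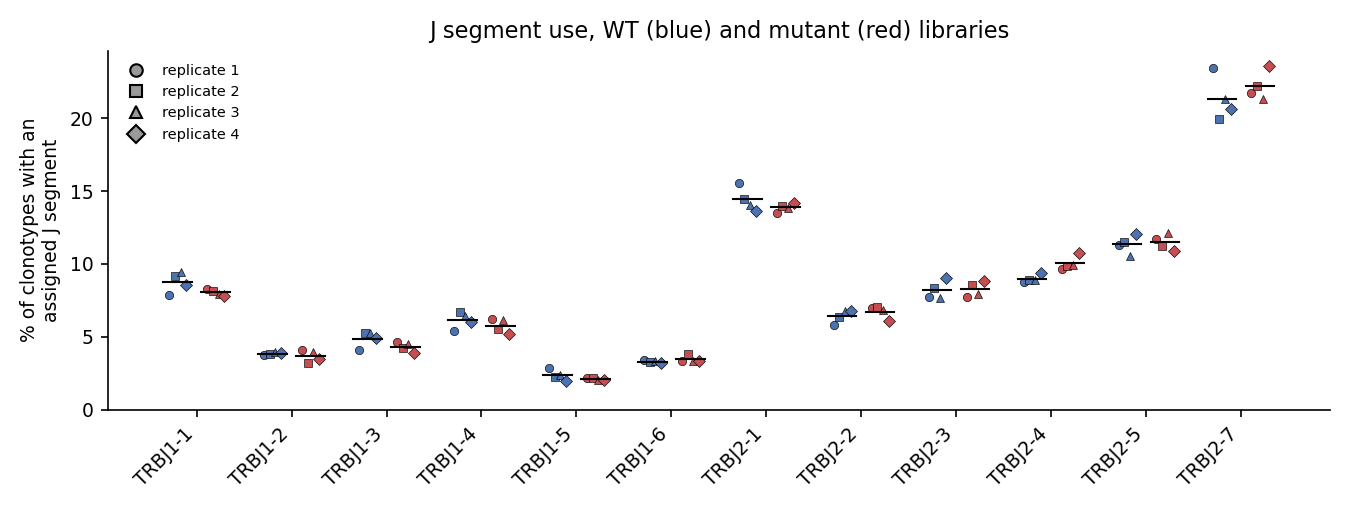
Percent of clonotypes using each of the 12 J segments, 1 marker per library, with a line at the mean of 4 libraries. The mutant markers of TRBJ2-4 lie between 9.67 and 10.8% and the WT markers between 8.73 and 9.40%, while those of TRBJ1-3 overlap through WT 1.

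A single V-J pair was called. TRBV14 with TRBJ2-4 was higher in mutant mice, the only call among 132 pairs tested (0.758%, edgeR's quasi-likelihood test, adjusted p under 0.05). It took 0.395, 0.378, 0.331 and 0.468% of clonotypes in WT and 0.537, 0.680, 0.630 and 0.747% in mutant libraries. Every mutant library lay above every WT library. These shares are 8, 20, 23 and 40 clonotypes in WT and 24, 46, 61 and 73 in mutant libraries, so WT 1 gives a coarse value. The log2 fold change was 0.73 (SE 0.20, edgeR adjusted p = 0.0432). Over the alternatives the fold change stayed between 0.63 and 0.88 on the log2 scale, and the adjusted p ranged from 0.0230 to 0.474. The call remained without WT 4 or mutant 1 and was lost without WT 1 (adjusted p = 0.0625), WT 2 (0.219), WT 3 (0.440), mutant 2 (0.105), mutant 3 (0.127) or mutant 4 (0.474). It was also lost with DESeq2 (0.405), with no filter on low counts (0.0758), without single-count clonotypes (0.0575) and with weighting by counts (0.449). TRBV14 itself took 5.22 ± 0.472% of WT and 5.19 ± 0.611% of mutant clonotypes (edgeR adjusted p = 0.909).

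The pair was no single clone. Its clonotypes encoded 273 receptors, 11 of them in 2 or more libraries, and its largest clonotype held 1.82% of its counts over all libraries pooled. Within libraries, the largest held 13 of 55, 17 of 92, 6 of 65 and 8 of 99 of the pair's counts in WT. In mutant libraries it held 12 of 100, 13 of 152, 7 of 146 and 13 of 225. By counts it took 0.324, 0.332, 0.252 and 0.410% of WT and 0.481, 0.519, 0.595 and 0.688% of mutant libraries, again without overlap. The largest TRBV14 TRBJ2-4 clonotype of each mutant library is shown, with the junctional bases in capitals, since they share V and J parts and little between them.
mutant 1: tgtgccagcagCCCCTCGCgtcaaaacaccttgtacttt
mutant 2: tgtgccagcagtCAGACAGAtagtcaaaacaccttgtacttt
mutant 3: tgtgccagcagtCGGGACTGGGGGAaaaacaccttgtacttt
mutant 4: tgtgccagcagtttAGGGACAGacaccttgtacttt

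They read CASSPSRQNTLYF, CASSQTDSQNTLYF, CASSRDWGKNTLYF and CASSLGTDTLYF and had 12, 13, 7 and 13 counts. Of these 4 receptors, that of mutant 3 was also in another library.

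Other TRBJ2-4 pairs leaned the same way without passing the test, and they were singled out after their values were seen. TRBV3 with TRBJ2-4 took 0.493, 0.321, 0.475 and 0.398% in WT and 0.515, 0.606, 0.558 and 0.655% in mutant libraries (log2 fold change 0.52, SE 0.21, edgeR adjusted p = 0.517). TRBV12 with TRBJ2-4 took 0.444, 0.453, 0.532 and 0.503% and 0.649, 0.665, 0.589 and 0.809% (0.47, SE 0.19, edgeR adjusted p = 0.517). Neither pair overlapped between strains. Of the 14 TRBJ2-4 pairs tested, 11 had a positive and 3 a negative fold change, with a median of 0.21, beside 59 positive and 73 negative with a median of -0.03 over all 132 pairs. All 10 tested TRBJ1-3 pairs had a negative fold change, with a median of -0.19, and 0 of them was called or had an unadjusted p under 0.05. Pairs of 1 J segment share that segment's shift and are not independent. Groups did not overlap in 6 of the 132 pairs, 4 of them higher in mutant mice.

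**Figure D3:**
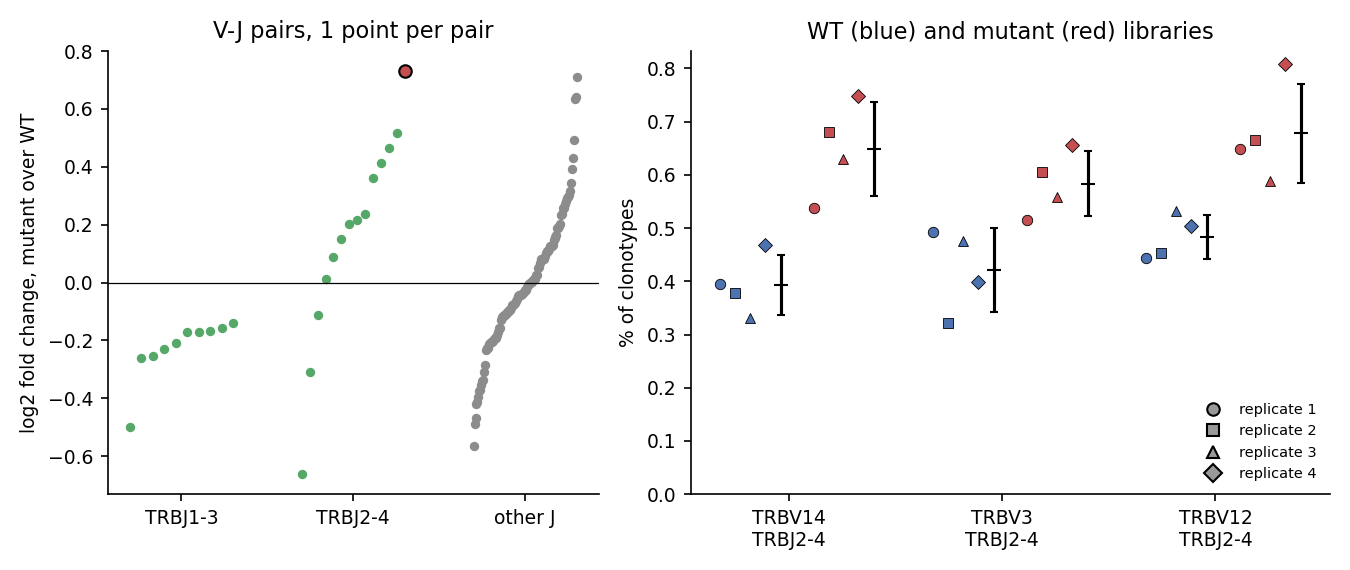
Left, log2 fold change (mutant over WT) of each tested V-J pair, sorted within TRBJ1-3, TRBJ2-4 and the other J segments, with the called pair in red at 0.73. Right, percent of clonotypes of 3 TRBJ2-4 pairs per library, with mean and SD; the strains do not overlap in any of the 3, and the pairs with TRBV3 and TRBV12 did not pass the test.

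Summary values of how V and J segments combine did not separate the strains. The mutual information between V family and J segment was taken over draws of 2027 clonotypes per library. At such numbers it lies above 0 even for independent choice, and that part was not subtracted. It was 0.0991, 0.108, 0.0956 and 0.104 bits in WT and 0.107, 0.104, 0.0980 and 0.0953 bits in mutant libraries (two-sided exact permutation p = 0.771, adjusted 0.882). The strains covered the same range. The Bray-Curtis distance between the V-J pair shares of 2 mice averaged 0.123 ± 0.0271 within WT (6 pairs of mice), 0.0973 ± 0.00924 within mutant mice (6) and 0.112 ± 0.0206 across strains (16). Across-strain distances exceeded within-strain ones by 0.00176 (exact permutation p = 0.514), a sign that turned without any 1 of the mutant libraries. The 3 highest WT distances, 0.158, 0.141 and 0.138, all involved WT 1.

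Departures from independent pairing recurred across mice. Of 49 pairs with at least 10 expected clonotypes in every library, 25 were called (51.0%, exact sign-flip test over 8 mice, adjusted p under 0.05), 15 above and 10 below expectation, and 19 to 22 when 1 library was left out. TRBV12 with TRBJ1-1 was the rarest against expectation, at 0.779, 0.284, 0.465 and 0.365 of the expected number in WT and 0.333, 0.317, 0.343 and 0.419 in mutant libraries. It was under 1 in all 8 (sign-flip adjusted p = 0.0201, the smallest of these). TRBV19 with TRBJ2-5 lay at 0.668 ± 0.169 (SD, n = 8) and TRBV15 with TRBJ2-1 at 1.36 ± 0.166 of expectation, each on 1 side of 1 in all 8. In TRBV15 with TRBJ2-1 the strain means were 1.36 ± 0.202 and 1.36 ± 0.154. Each V family here can hold several genes, so a ratio can mix genes that pair differently.

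CDR3s averaged slightly longer in mutant mice. With 16 tests and 4 mice per strain, a lone complete separation of the strains adjusts to 0.457, so the adjusted values below could hardly have passed. Each clonotype counted once, mean lengths were 13.86, 13.87, 13.89 and 13.89 residues in WT and 13.90, 13.94, 13.90 and 13.89 in mutant libraries. Mutant 4 lay below the highest WT library, so the strains overlapped (difference 0.0313 residues, two-sided exact permutation p = 0.0571, adjusted 0.457). Weighted by counts, mean lengths were 13.68, 13.80, 13.81 and 13.82 in WT and 13.83, 13.85, 13.85 and 13.84 in mutant libraries. Here every mutant library lay above every WT library (difference 0.0653 residues, exact permutation p = 0.0286, the smallest that 4 against 4 allow, adjusted 0.457). Without WT 1, the lowest, the difference was 0.0322. Without any 1 mutant library the exact permutation p was 0.0857.

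No single length was called. The most frequent length, 14 residues, held 30.0 ± 0.350% of WT and 30.1 ± 0.374% of mutant clonotypes. Lengths of 15 residues held 21.7, 22.4, 22.5 and 21.9% in WT and 22.7, 24.0, 22.8 and 22.4% in mutant libraries, a length singled out after its values were seen as that with the smallest p (log2 fold change 0.05, edgeR adjusted p = 0.619). Of the 9 lengths, 0 passed (0%, edgeR adjusted p under 0.05), 0 had an unadjusted p under 0.05, and 0 were called by DESeq2. CDR3s of at most 11 residues made up 5.47 to 6.18% of clonotypes and those of at least 16 residues 11.2 to 11.96% over the 8 libraries.

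**Figure D4:**
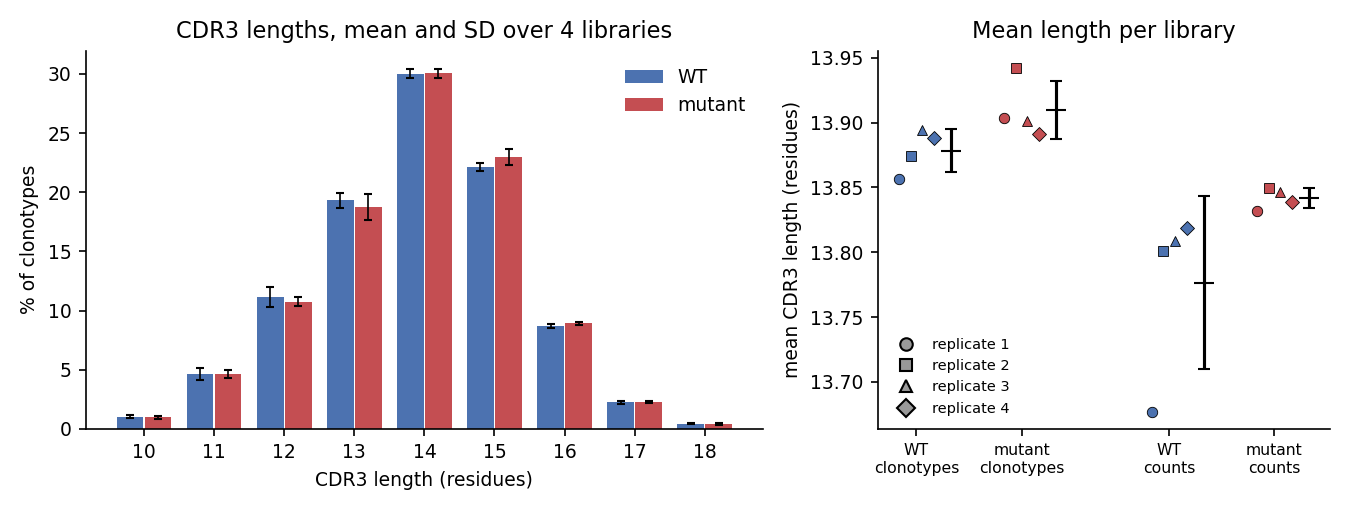
Left, percent of clonotypes at each tested CDR3 length, bars for the mean and whiskers for the SD of 4 libraries. Right, mean CDR3 length per library with each clonotype counted once or weighted by counts, with mean and SD; by counts the mutant libraries lie at 13.83 to 13.85 residues and WT 1 at 13.68.

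CDR3s averaged shorter by counts than by clonotypes. The mean by counts was below the mean by clonotypes in 8 of 8 mice, on average by 0.0848 residues (SD 0.0407, exact sign-flip p = 0.00781, adjusted 0.00781). The strain difference in this shortening was 0.0340 residues (exact permutation p = 0.286). Length was 13.97 ± 0.0406 residues at a count of 1 and 13.75 ± 0.0511 at counts of 6 to 20 (SD, n = 8). Above 20 counts it ranged from 13.29 in WT 1 to 14.38 in mutant 1, over 4 to 144 clonotypes per library. TRBV13, which makes up more of the large clonotypes, had shorter CDR3s than all other families pooled, 13.69 ± 0.0439 against 14.01 ± 0.0271 residues (SD, n = 8). TRBV20 (13.22 ± 0.157), TRBV31 (13.61 ± 0.195), TRBV29 (13.67 ± 0.124) and TRBV15 (13.68 ± 0.149) averaged shorter still, by little in TRBV29 and TRBV15 (SD, n = 8). Within TRBV13, the mean by clonotypes was 13.59, 13.70, 13.68 and 13.69 in WT and 13.69, 13.71, 13.74 and 13.69 in mutant libraries. By counts it was 13.42, 13.65, 13.60 and 13.656 in WT and 13.663, 13.663, 13.71 and 13.69 in mutant libraries, with no overlap. In mutant 4 it was not lower by counts (13.69 against 13.687 by clonotypes). Outside TRBV13, lengths by counts ran from 13.95 to 14.04 with both strains interleaved, and by clonotypes from 13.98 to 14.07. There the mean by counts was not lower in WT 2 (13.982 against 13.979). The part of family use in the shortening and in the strain difference was not tested.

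Residues of the CDR3 middle, after removal of 4 residues at each end, gave no call. Of 20 amino acids, 0 were called (0%, edgeR's quasi-likelihood test), 0 had an unadjusted p under 0.05, and 0 were called by DESeq2. Glycine was the most frequent, at 22.7 ± 0.269% of residues in WT and 22.8 ± 0.306% in mutant mice (edgeR adjusted p = 0.852). Hydrophobic residues made up 12.1, 11.1, 11.8 and 11.7% in WT and 11.9, 11.9, 11.8 and 11.98% in mutant libraries. The mutant libraries lay within the WT range (difference 0.263 percentage points, two-sided exact permutation p = 0.314, adjusted 0.665). Without WT 1 the difference was 0.413 (exact permutation p = 0.0286), and weighted by counts 0.450 (p = 0.0286). Net charge averaged -0.441 ± 0.0161 in WT and -0.440 ± 0.0120 in mutant mice (exact permutation p = 0.971).

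By position from the start of the CDR3, 0 of 85 residue and position combinations at positions 4 to 8 were called (0%, edgeR adjusted p under 0.05), 3 had an unadjusted p under 0.05, and by DESeq2 0 were called. Shares here are of all residues at positions 4 to 8, not of clonotypes. Arginine at position 6 took 2.27, 2.31, 2.13 and 2.15% of these residues in WT and 2.06, 2.05, 2.06 and 2.06% in mutant libraries. Aspartate at position 6 took 2.34, 2.41, 2.43 and 2.36% of them in WT and 2.61, 2.47, 2.57 and 2.53% in mutant libraries. Neither overlapped between strains, and both had an edgeR adjusted p of 0.707. Of the 85 combinations, the only other without overlap was glycine at position 4, singled out after its values were seen. It took 2.79 ± 0.106% of these residues in WT and 2.67 ± 0.0396% in mutant mice (edgeR adjusted p = 0.707). Libraries split 4 against 4 without overlap with an exact permutation probability of 0.0286, so a few of 85 can arise without a strain difference. Lysine at position 8 had the smallest p of all (0.199 ± 0.0150% in WT and 0.157 ± 0.0239% in mutant mice). Of the lower residues, lysine at position 4 came next in p after arginine at position 6 (0.126 ± 0.0294 and 0.0893 ± 0.0120%). The higher ones with the smallest p after aspartate were arginine at position 5 (1.29 ± 0.0923 and 1.37 ± 0.0345%) and tryptophan at position 7 (1.13 ± 0.0424 and 1.20 ± 0.0488%). Each had an edgeR adjusted p of 0.707.

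Junctions carried about 3 inserted bases in every mouse. Counted over clonotypes with an aligned D segment, 73.6 to 75.5% of each library, insertions averaged 3.08, 3.08, 3.16 and 2.97 in WT and 3.24, 3.11, 3.08 and 3.01 in mutant libraries. The strains overlapped (difference 0.0355, two-sided exact permutation p = 0.6). Between 12.7% (mutant 1) and 14.4% (WT 2) of these clonotypes had no inserted base.

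Most receptors were private to 1 mouse. Of 48505 receptors, 45811 were found in 1 library, 2191 in 2, 381 in 3, 83 in 4, 30 in 5, 8 in 6 and 1 in 7, and 0 in all 8. Of the 2694 in 2 or more libraries (5.55%), 1645 were in both strains. Different nucleotide sequences carried much of this sharing: in 1657 of the 2694 (61.5%) no nucleotide sequence was itself found in 2 libraries. At the nucleotide level 1083 of 52593 clonotypes (2.06%) were in 2 or more libraries, and 0 in more than 5.

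The share of receptors found in another mouse gave no difference that passed the test. At equal depth, 13.8, 12.3, 11.8 and 10.5% of a WT library's receptors and 11.8, 11.3, 9.98 and 11.2% of a mutant library's were found in another mouse. The ranges overlapped (difference -1.02 percentage points, two-sided exact permutation p = 0.286, adjusted 0.665). Without WT 1 the difference was -0.297, and without WT 2 it was -0.481. Pairs of WT mice shared 106 ± 50.9 receptors (SD, 6 pairs), pairs of mutant mice 154 ± 48.6 (6 pairs) and pairs across strains 124 ± 52.6 (16 pairs). Each mouse enters several pairs, so the pairs are not independent. Pairs that included WT 1, the library with the fewest clonotypes, shared 29.3 to 71.9, and all other pairs 85.5 to 222. Pairs within strains shared 6.08 more receptors than pairs across (exact permutation p = 0.286), which turned negative without any 1 of the mutant libraries. Nucleotide sequences per receptor averaged 1.023 ± 0.00872 in WT and 1.028 ± 0.00907 in mutant mice (exact permutation p = 0.457). That difference went from 0.00467 to 0.00146 without WT 1 and to 0.000562 without mutant 3, and was 0.00831 without WT 4 and 0.00714 without mutant 1.

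Shared receptors had shorter junctions and higher counts in all 8 mice. Their clonotypes carried 1.84, 2.02, 1.97 and 1.81 inserted bases in WT and 1.89, 1.95, 1.94 and 1.79 in mutant libraries, against 3.26, 3.23, 3.31 and 3.10 and 3.41, 3.25, 3.20 and 3.14 in receptors of 1 mouse. Insertions were again counted only where a D segment was aligned. Each library's shared receptors lay below every library's private ones (mean difference -1.33, SD 0.0986, exact sign-flip p = 0.00781, adjusted 0.00781). CDR3 length was 0.648 residues shorter (SD 0.0562, same p), and the count per clonotype was 1.31-fold higher (same p). Sharing was defined over these same 8 libraries, so each shared receptor enters the values of more than 1 mouse. The 8 differences are thus not fully independent, as the sign-flip test takes them to be. The count of a clonotype and its detection in another mouse are linked through depth, and the part of that link was not tested. The strain difference in the count ratio was 0.11 on the log2 scale (exact permutation p = 0.0571), and that in insertions -0.0438 (p = 0.571). TRBV13 made up 54.5 ± 2.49% of shared and 32.4 ± 0.968% of private clonotypes (SD, n = 8). From receptors in 1 library to those in 4, the mean of inserted bases went from 3.21 to 1.13 and the mean length from 13.98 to 12.83 residues, as a description.

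**Figure D5:**
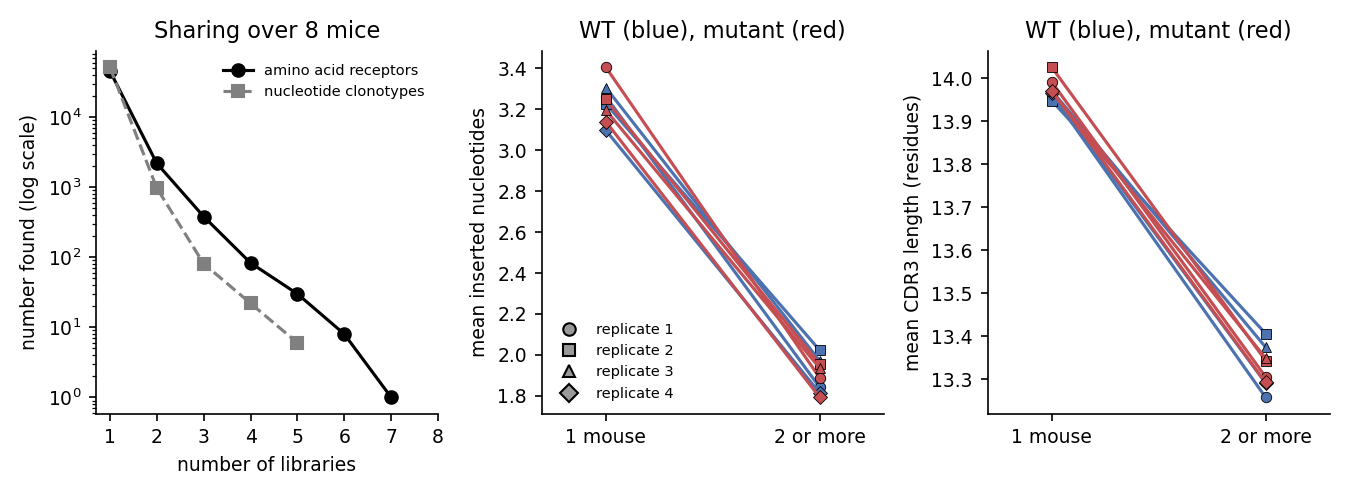
Left, number of amino acid receptors and of nucleotide clonotypes found in 1 to 8 libraries (log scale; counts of 0 are not drawn). Middle and right, mean inserted bases and mean CDR3 length of receptors found in 1 mouse or in 2 or more, 1 line per library; all 8 lines fall.

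The most shared receptors were mostly short TRBV13 receptors. Where a D segment was aligned, they carried at most 3 inserted bases. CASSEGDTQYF, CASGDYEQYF and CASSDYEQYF had no aligned D segment in any library, so their insertions were not measured. In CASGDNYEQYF, 10 of 11 entries over the libraries had none aligned. No receptor was in all 8 libraries, so the 9 found in at least 6 are described, a limit chosen after their number was seen. Of these, 8 used TRBV13 and 1 used TRBV12, and 5 used TRBJ2-7. The receptor in 7 libraries, TRBV13 TRBJ2-7 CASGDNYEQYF, had 0, 7, 12 and 2 counts in WT and 5, 28, 2 and 24 in mutant libraries. It was carried by 5 nucleotide sequences, shown with the bases that differ among them in capitals.
in 4 libraries: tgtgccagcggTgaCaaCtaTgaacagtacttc
in 3 libraries: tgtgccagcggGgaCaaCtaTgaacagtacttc
in 2 libraries: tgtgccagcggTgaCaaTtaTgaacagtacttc
in mutant 2: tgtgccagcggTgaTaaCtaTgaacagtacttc
in WT 4: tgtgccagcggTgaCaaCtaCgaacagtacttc

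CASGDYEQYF, which is 1 residue shorter, used the same segments. It had 19, 23, 3 and 11 counts in WT and 0, 16, 0 and 5 in mutant libraries. All WT libraries and 2 of the mutant libraries held it, through 2 sequences that differ at the capital base.
in 5 libraries: tgtgccagcggtgaTtatgaacagtacttc
in 3 libraries: tgtgccagcggtgaCtatgaacagtacttc

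The receptor with the most nucleotide sequences was TRBV12 TRBJ2-7 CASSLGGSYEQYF, with 10 sequences over 6 libraries, 3 of each strain. It had 0, 10, 12 and 6 counts in WT and 1, 5, 0 and 11 in mutant libraries. The other 6 were TRBV13 receptors with 2 to 5 sequences, each in 6 libraries: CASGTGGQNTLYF, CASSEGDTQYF, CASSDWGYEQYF, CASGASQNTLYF, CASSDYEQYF and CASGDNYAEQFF. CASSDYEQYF had 21, 8, 14 and 1 counts in WT and 4, 5, 0 and 0 in mutant libraries. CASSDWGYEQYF, with 0, 5, 0 and 4 counts in WT and 11, 9, 2 and 15 in mutant libraries, was found in every mutant library. Each of the 9 was in both strains, and 2 of them, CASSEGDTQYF and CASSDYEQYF, were each found in 1 tetramer-binding library.

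No single receptor passed the test between the strains. Only 2 receptors had enough counts for edgeR's quasi-likelihood test and 0 of them was called (0%), with 0 at an unadjusted p under 0.05. They were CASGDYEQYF (log2 fold change -1.80, SE 1.92, adjusted p = 0.730) and TRBV13 TRBJ2-4 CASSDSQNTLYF (0.16, SE 1.86, adjusted p = 0.931). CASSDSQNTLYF took 0.169, 0, 0 and 0% of counts in WT and 0.0478, 0.0714, 0.0567 and 0.0122% in mutant libraries, so 1 WT and all 4 mutant libraries held it. Among the 122 receptors in at least 4 libraries, a choice made after the data were seen, 0 were called and 2 had an unadjusted p under 0.05, both of them absent from all WT and present in all mutant libraries with 1 to 10 counts each. A receptor absent from all WT libraries enters this set only if all 4 mutant libraries hold it. The choice of receptors thus fixed this pattern, and the 2 unadjusted p-values lend it no support. DESeq2 could not be fitted to so few receptors. At these counts differences in single receptors were not detectable.

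In a comparison added after the data were seen, few counts lay in clonotypes also found among the same mouse's tetramer-binding cells. They took 0.204, 0.126 and 0.0812% of the counts in WT 1 to WT 3 and 0.622, 0.568, 0.441 and 0.730% in mutant libraries, and the tetramer-binding library of WT 4 was not analysed here. Every mutant library lay above every WT library (difference 0.453 percentage points, two-sided exact permutation p = 0.0286, the smallest that 3 against 4 allow). The matching clonotypes numbered 3, 6 and 2 in WT 1 to WT 3 and 28, 44, 22 and 17 in mutant libraries. The tetramer-binding libraries they were matched to held 102, 126 and 97 clonotypes in WT and 997, 2199, 1631 and 393 in mutant mice. The part of that size difference was not tested. Without clonotypes that are 10 or more times as abundant in another library, and so may be carried over between them, the difference was 0.361 (exact permutation p = 0.0571). It remained between 0.406 and 0.503 when 1 library was left out, where fewer assignments cannot give a p under 0.0667. Matched to the tetramer-binding libraries of other mice instead, and averaged over those libraries, the shares were 0.206 to 1.40% in WT and 0.190 to 0.349% in mutant libraries, with WT 1 highest. WT and mutant mice were matched to different mixes of small and large tetramer-binding libraries. These ranges therefore cannot be compared directly with each other or with the shares of the own mouse.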

How the data were processed

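TCRβ libraries were sequenced on an Illumina MiSeq after rapid amplification of cDNA ends with molecular identifiers, per the labels' protocols. For each library the authors deposited the count of every nucleotide CDR3, and whether counts are reads or identifiers is not stated. The deposited fraction, each count over a library total, was used only to recover that total, of which the tables held 94.8 to 96.3%. The deposited CDR3 length, in residues, and the V, D and J alignment positions were used as given. Which aligner, clonotype caller and build were used is not given in the sources used here.

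Entries of alpha chains (4, with 6 counts) were left out. V segments are given as families and J segments as clusters, TRBJ1 or TRBJ2. J segments were assigned from the last 12 bases with at most 2 mismatches against segment ends learned from the tables, and 317 clonotypes (0.589%) stayed unassigned. Equal depth means 100 seeded draws of 17116 counts. Single values were compared by two-sided exact permutation over 70 assignments of the 8 mice, with Benjamini-Hochberg adjustment over 16 tests. Clonotypes per segment, pair, length or residue, and counts per receptor, were tested with edgeR 4.0.16's quasi-likelihood test (R 4.3.3, filterByExpr minimum count of 10, column totals as library sizes, adjusted p under 0.05). The test was tried on simulated data. DESeq2 1.42.0 was an alternative. Figures and exact tests used Python 3.11.15 with numpy 2.4.6, pandas 2.3.3 and scipy 1.17.1. Other alternatives were leaving out each library, a replicate block, TMM factors, no filter, weighting by counts, and leaving out single-count clonotypes or possible carry-over.

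V families and J segments were counted, with values for those called and for TRBV13, TRBJ1-3 and TRBJ2-4. Among pairs, residues by position and receptors, those called were named, or the 3 smallest p each way where none was. Lengths and residues called or most frequent, the largest clonotypes and the most shared receptors were named as well. Others are marked as singled out later or belong to the V families of other T cells. Comparisons, members and lists were chosen with earlier results of these data known. Libraries come from separate mice. No label says that a replicate number marks a shared litter or batch. Deviations of same-numbered libraries of the strains in 132 V-J pair shares correlated with r of -0.150, 0.0159, 0.0434 and -0.00641. A shared litter or batch need not show in these shares, so whether the numbers pair the mice is not known.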

Additional observations from a re-analysis of the deposited data

Results flagged for a closer look

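Among 75 sets of 4 libraries checked for a sample far from the rest, of which chance alone marks about 1 in 20, 3 values stood out, all of them in WT 1. In WT 1 expanded clonotypes held 33.7% of the counts, where the next WT library had 3.65%. It had 207 expanded clonotypes, where the next WT library had 24. Its mean CDR3 length by counts was 13.68 residues, where the next WT library had 13.80. WT 1 also had the fewest counts, 17116, and the fewest clonotypes, 2040. What set this mouse or library apart was not tested.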

How the results depend on the processing

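Of 107 alternative values other than those leaving out a library, 93 kept their direction and side of the threshold, or their count of calls. The J segment call became 0 calls with the replicate block, with TMM factors and with weighting by counts, and 0 to 3 when 1 library was left out. These are counts of calls of any segment, and TRBJ1-3 itself was not called with DESeq2 either, as given above. The V-J pair call became 0 calls with the replicate block, DESeq2, no filter on low counts, weighting by counts or without single-count clonotypes, and 0 to 1 when 1 library was left out. Under the replicate block TRBV14 with TRBJ2-4 kept a log2 fold change of 0.76 (edgeR adjusted p = 0.0507) and TRBJ1-3 one of -0.23 (adjusted p = 0.144), and the block changed no other call. Whether the numbers pair the mice is not known, so neither fit can be called the better test.

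Without possible carry-over the CDR3 length difference by clonotypes, 0.0320 residues, had an unadjusted exact permutation p of 0.0286, and the difference in counts shared with the own tetramer-binding library was weaker, at 0.361 percentage points. Weighted by counts, the difference in hydrophobic residues, 0.450 percentage points, had the same unadjusted p. Neither would hold after adjustment over 16 tests, whose smallest possible value for a lone complete separation is 0.457. The difference in the 50 largest clonotypes was -0.960 percentage points against a positive one in the 10 largest. Net charge turned to -0.00053 without single-count clonotypes and to -0.000981 with other limits of the CDR3 middle. The cause of these changes was not tested.

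Leaving out 1 library at a time, values ranged as follows, from lowest to highest. The share of expanded clonotypes ran from -9.49 to 1.52 percentage points and that of the 10 largest from -0.436 to 0.831. CDR3 length ran from 0.0204 to 0.0374 residues by clonotypes and from 0.0322 to 0.0793 by counts. Hydrophobic residues ran from 0.0645 to 0.413 percentage points and net charge from -0.00299 to 0.00922. V-J dependence ran from -0.00266 to 0.00137 bits, the V-J distance from -0.00354 to 0.00937, and sharing within strains from -2.90 to 20.7 receptors. The share of counts in own tetramer-binding clonotypes ran from 0.406 to 0.503 percentage points. V families without a filter, and receptors with DESeq2, without possible carry-over or by number of nucleotide clonotypes, could not be fitted and were not run.

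With 4 mice per strain, a single value cannot reach an exact p under 0.0286, and no single-value difference held after adjustment. Counts of 17116 to 32856 per library allow an unseen clonotype a share of up to 0.0175% in the shallowest.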
